A study of Mus musculus with 6 samples.

Results

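The genes that decide whether a cell leaves G1 were followed in mouse β cell clones with and without intact *Snd1*. They were the D cyclins *Ccnd1*, *Ccnd2* and *Ccnd3*, their kinases *Cdk4* and *Cdk6*, the Ink4 inhibitors *Cdkn2a*, *Cdkn2b* and *Cdkn2c*, and the inhibitors *Cdkn1a* (p21) and *Cdkn1b* (p27). These 10 genes were listed by name and not filtered on their values, although earlier results of these data were known. They were found by Ensembl identifier among 53801 mouse genes. The samples were 6 clones of MIN6, a mouse insulinoma line, all of which expressed Cas9, carried a lentiviral guide RNA selected with puromycin and were each grown from a single cell. In 3 control clones the guide was directed to *intron* 2 of *Snd1*, and in 3 *Snd1* KO clones to *exon* 2. SND1 is a coregulator with nuclease-like and Tudor domains, and the comparison asks how its loss alters gene expression in β cells. There was 1 library per clone, so the spread within a group is the spread between clones, and p-values measure a group difference against it.

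D cyclins bind Cdk4 or Cdk6 when mitogens are present, and the kinases phosphorylate the retinoblastoma protein, which then releases E2F factors that drive S phase genes. Ink4 proteins bind Cdk4 and Cdk6 and keep the cyclin out, whereas p21 and p27 bind cyclin and kinase together and act mainly on Cdk2. In mouse β cells, Cdk4 and cyclin D2 are known as the main pair of this step, p16Ink4a from *Cdkn2a* accumulates with age, and menin keeps *Cdkn1b* and *Cdkn2c* expressed. MIN6 comes from a tumour driven by the viral large T antigen under the insulin promoter, and T antigen binds retinoblastoma proteins and p53, which limits these clones as a model of a resting β cell.

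Start sites of the genes with the main shares of kinase and inhibitor RNA are shown, since a row of the data sums all starts of a gene. Windows around RefSeq start sites on GRCm38.p6, from 250 bases before to 50 bases after the start, were held for 8 of the 10 genes (not *Ccnd1* or *Ccnd2*) and numbered 12. The 250 bases before the start are printed 5′ to 3′ on the strand of the gene, with motif letters in capitals. Motifs were searched on both strands over whole windows and are a description of letters, not of binding. In *Cdk4* (chr10:127063285-127063534, plus strand) capitals mark the E-box CACGTG, which 7.15% of all 32851 windows hold. The window of *Cdk4* holds 4, and 8 of all windows hold at least as many. In *Cdkn2c* (chr4:109666757-109667006, minus strand) and at the outer start of *Cdkn2a* (chr4:89294620-89294869, minus strand) capitals mark the GC box GGGCGG, which 35.7% of windows hold. The window of this outer start also holds 1 E2F-type site, TTTCCCGC, left in small letters, which 1.07% of windows hold. A second start of *Cdkn2c* (chr4:109665373-109665622, minus strand) is not printed, and its window holds 0 GC boxes. The inner start of *Cdkn2a* (chr4:89282193-89282442, minus strand) has no capitals within the printed bases. In *Cdkn1b* (chr6:134920151-134920400, plus strand) capitals mark CCAAT, which 37.4% of windows hold. In the upstream start of *Cdkn1a* (chr17:29090729-29090978, plus strand) capitals mark a p53-type element, 2 copies of ACATGT with 4 bases between them, chosen after the sequence was seen, and 4 of all windows hold it. The other start of *Cdkn1a* (chr17:29093519-29093768, plus strand) is not printed, and its window holds 0 of these elements.
Cdk4: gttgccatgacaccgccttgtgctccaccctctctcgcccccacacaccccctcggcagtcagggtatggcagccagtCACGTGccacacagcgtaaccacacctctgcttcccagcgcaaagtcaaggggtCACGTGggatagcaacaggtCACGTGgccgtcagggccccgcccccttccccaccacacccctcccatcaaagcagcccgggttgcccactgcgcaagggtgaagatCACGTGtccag
Cdkn2c: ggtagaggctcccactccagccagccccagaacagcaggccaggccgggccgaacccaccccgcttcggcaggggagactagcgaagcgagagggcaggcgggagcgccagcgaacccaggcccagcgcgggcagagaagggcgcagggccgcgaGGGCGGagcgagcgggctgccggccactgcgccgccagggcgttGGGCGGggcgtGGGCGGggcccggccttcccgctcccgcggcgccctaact
Cdkn2a, outer start (p19Arf): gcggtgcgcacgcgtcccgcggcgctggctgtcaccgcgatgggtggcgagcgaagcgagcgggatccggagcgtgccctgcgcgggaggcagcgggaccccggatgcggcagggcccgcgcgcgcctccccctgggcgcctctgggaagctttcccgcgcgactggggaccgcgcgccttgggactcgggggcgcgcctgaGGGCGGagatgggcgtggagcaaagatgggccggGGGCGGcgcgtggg
Cdkn2a, inner start (p16Ink4a): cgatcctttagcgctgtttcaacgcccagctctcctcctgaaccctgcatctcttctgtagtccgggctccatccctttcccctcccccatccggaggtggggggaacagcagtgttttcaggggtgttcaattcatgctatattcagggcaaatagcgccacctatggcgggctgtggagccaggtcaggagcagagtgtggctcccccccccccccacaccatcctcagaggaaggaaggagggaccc
Cdkn1b: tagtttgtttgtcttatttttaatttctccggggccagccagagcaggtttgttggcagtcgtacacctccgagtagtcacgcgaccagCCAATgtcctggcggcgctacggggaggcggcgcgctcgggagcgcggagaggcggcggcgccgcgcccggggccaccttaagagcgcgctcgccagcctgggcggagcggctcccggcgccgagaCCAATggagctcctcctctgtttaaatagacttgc
Cdkn1a, upstream start: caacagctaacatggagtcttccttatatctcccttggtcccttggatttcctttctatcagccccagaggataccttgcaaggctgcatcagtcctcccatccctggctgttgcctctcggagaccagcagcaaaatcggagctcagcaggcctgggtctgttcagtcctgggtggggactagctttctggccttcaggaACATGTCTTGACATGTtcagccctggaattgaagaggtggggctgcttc

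Values were deposited as TPM, the reads of a gene divided by its length and scaled to 1000000 per library. The clones held between 23700608 and 30454309 reads on genes, recovered from the steps of the TPM values. This is more than the approximate number of reads per library that the paper gives. Sequencing was of paired ends, and whether both mates of a pair were counted was not tested. *Snd1* itself was at 113, 119 and 112 TPM in Control 1 to 3 and at 14.7, 57.1 and 19.9 TPM in *Snd1* KO 1 to 3, so all KO clones lay below all controls and *Snd1* KO 2 kept 49.8% of the control mean. Its log2 fold change was −2.11 ± 0.45 (SE) with a limma adjusted p of 0.511. All 8 β cell markers were at 191 TPM or more in every clone, but not all were level. *Neurod1*, a β cell transcription factor, was at 355 to 399 TPM in controls and at 556 to 726 TPM in *Snd1* KO (log2 difference 0.78 ± 0.14, limma adjusted p = 0.372). *Slc30a8*, a zinc transporter of insulin granules, was at 191 to 744 TPM in controls and at 779 to 1005 TPM in *Snd1* KO (1.45 ± 0.50, limma adjusted p = 0.585). Weighting clones by quality took the limma adjusted p to 0.0179 for *Neurod1* and to 0.0216 for *Slc30a8*. With these weights 895 of all 17823 genes were called (adjusted p under 0.05 and 2-fold), compared with 1 in the main fit. These 2 of the 8 did not overlap, beside 13.7% of all genes, and *Ins1* ranged from 2059 to 11945 TPM between clones. Of 11 markers of other cells, 10 stayed at or below 2.42 TPM in every clone, *Cpa1* was at 0 in all, and summed to between 1.03 and 3.12 TPM. *Gcg*, the α cell hormone, was between 55.2 and 314 TPM in 5 clones and at 1100 TPM in *Snd1* KO 1, and its part in the values of that clone was not tested. Clones did not group cleanly by genotype. Across 11368 genes, Control 3 correlated with *Snd1* KO 3 (r = 0.955) more than with Control 1 (r = 0.943), and Control 3 and *Snd1* KO 1 received the lowest quality weights of limma, 0.279 and 0.286. Main counts are therefore also given without these 2 clones. In that setting 87.5% of the β cell markers did not overlap, beside 61.0% of all genes, and *Slc30a8* was among the 133 called of 17823 genes.

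The G1 genes were expressed in a strongly uneven way. For comparing genes, reads were divided by the length of all exonic bases counted once and rescaled to TPM (per-length TPM). On this scale, *Ccnd2*, which encodes cyclin D2, led in controls at 672 ± 88.6 (SD, n = 3), followed by *Cdkn2c*, which encodes p18Ink4c, at 485 ± 20.5. The 3 controls of these genes did not overlap. *Cdkn2a* at 232 ± 24.3 and *Cdk4* at 231 ± 6.67 could not be told apart within their spread, and *Cdkn1b* came next at 180 ± 32.1. *Cdkn2b*, which encodes p15Ink4b, was at 33.7 ± 4.19 and *Ccnd3* at 9.45 ± 0.464. In *Snd1* KO clones *Cdkn2c* was at 489 ± 43.0 and *Ccnd2* at 424 ± 206, and these overlapped. *Cdk4* (262 ± 52.2), *Cdkn1b* (226 ± 28.3) and *Cdkn2a* (216 ± 29.3) overlapped as well.

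The level of *Cdkn1a* per length was known only up to a factor. The shortest length that gave whole reads was 3515 bases and gave 70.3 ± 4.4 per-length TPM in controls and 71.9 ± 11.9 in *Snd1* KO. The summed length of its transcripts in GENCODE M21 is 7045 bases, close to 2 times the shortest, and at that multiple the controls would be between 133 and 150 per-length TPM. Either value lies below *Cdkn2a*, *Cdk4* and *Cdkn2c* and above *Cdkn2b* in controls. Differences between clones do not depend on this length.

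**Figure D1:**
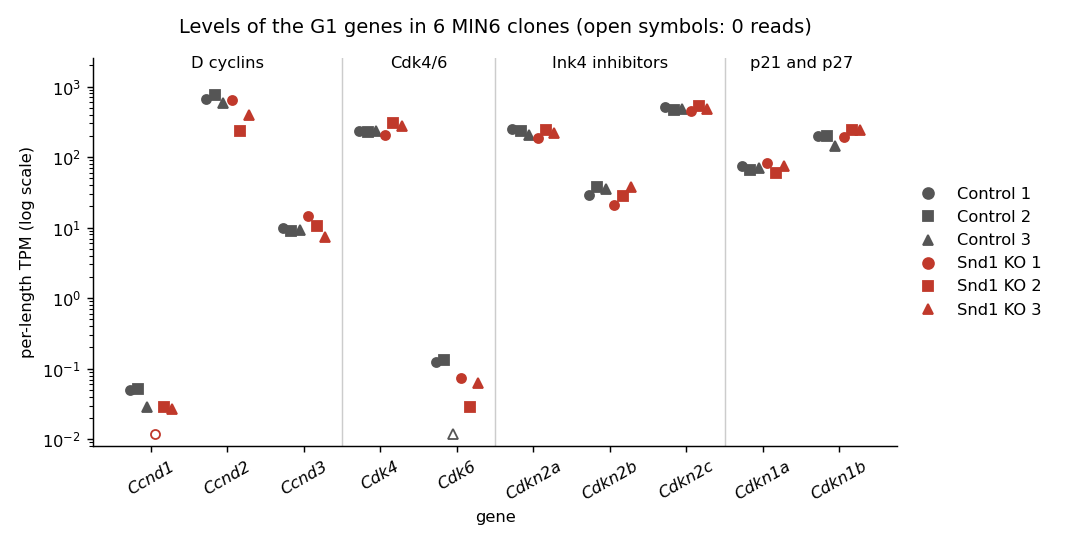
Per-length TPM on a log axis of the 10 G1 genes, with 1 point per clone (grey, control; red, *Snd1* KO) and open symbols at the foot for 0 reads. *Ccnd2* and *Cdk4* stand far above the other genes of their families in every clone, and the level of *Cdkn1a* is set only up to a whole multiple.

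Among D cyclins, *Ccnd2* (ENSMUSG00000000184, chromosome 6 from 127125162 to 127152193, GRCm38, minus strand) made up nearly the whole pool. It was 98.5%, 98.8% and 98.5% of D cyclin per-length TPM in Control 1 to 3. The share was 97.8%, 95.8% and 98.1% in *Snd1* KO 1 to 3. *Ccnd3* supplied most of the rest, and *Ccnd1* was close to nothing.

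*Ccnd2* varied most of the 8 genes that could be tested, by 3.23 times between the highest and the lowest clone. The deposited values were 707, 825 and 633 TPM in Control 1 to 3 and 686, 255 and 416 TPM in *Snd1* KO 1 to 3. Relative to the control mean, *Snd1* KO 2 was at 35.3% and *Snd1* KO 3 at 57.6%, but *Snd1* KO 1 was at 95% and fell within the range of the controls. The clones therefore overlapped, although 2 of the 3 *Snd1* KO clones lay below every control. On the log2(TPM + 1) scale the difference was −0.78 ± 0.34 (SE), with a 95% interval from −1.60 to 0.04, and did not pass (limma adjusted p = 0.607 over 17823 genes). An exact two-sided permutation test of the clones gave p = 0.2, where 0.1 is the smallest that 3 against 3 can give. Without *Snd1* KO 1 the difference was −1.14 and without *Snd1* KO 2 it was −0.43, so the size rested on which KO clone was counted. With clone quality weights, under which 895 of all genes were called, it was −0.93 ± 0.19 with a limma adjusted p of 0.0321 and stayed under 2-fold. In bulk RNA, fewer cells that express a gene and less RNA per cell cannot be told apart. Counting error is not the limit here, since *Ccnd2* had between 16620 and 58808 reads per clone.

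The order of *Ccnd2* among KO clones was not the order of residual *Snd1*. *Snd1* KO 1 had the least *Snd1* RNA, 12.9% of the control mean, and the most *Ccnd2* of the 3, and *Snd1* KO 2 had the most *Snd1* RNA and the least *Ccnd2*. RNA of an edited gene can still be counted, so *Snd1* TPM does not measure SND1 protein. The paper chose its KO clones as SND1-deficient by immunoblot and reported disruptive indels from sequencing.

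*Ccnd3*, which encodes cyclin D3 (ENSMUSG00000034165, chromosome 17 from 47505051 to 47599691, plus strand), was at 5.31, 4.82 and 4.89 TPM in Control 1 to 3 and at 7.60, 5.54 and 3.87 TPM in *Snd1* KO 1 to 3. *Snd1* KO clones lay on either side of the narrow control range. Between groups the log2 difference was 0.11 ± 0.24 (limma adjusted p = 0.916). It was −0.09 without *Snd1* KO 1. *Ccnd3* shares 4.11% of its exonic bases with *Bysl* on the opposite strand, at 27.5 to 49.0 TPM, and the library kit does not mark strand.

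*Ccnd1*, which encodes cyclin D1 (ENSMUSG00000070348, chromosome 7 from 144929931 to 144939925, minus strand), had 2, 2 and 1 reads in Control 1 to 3 and 0, 1 and 1 reads in *Snd1* KO 1 to 3. All clones were thus under the detection floor of 3 reads, which corresponds to between 0.0875 and 0.101 TPM, and no fold change is given. These few reads may also come from *LTO1*, which overlaps 23.4% of the exonic bases of *Ccnd1* on the opposite strand and was at 9.11 to 11.2 TPM.

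*Cdk4* (ENSMUSG00000006728, chromosome 10 from 127063534 to 127067920, plus strand) was the main kinase of the pair in every clone, at 99.9% or more of the summed *Cdk4* and *Cdk6* per-length TPM. It was at 117, 113 and 119 TPM in Control 1 to 3 and at 102, 155 and 137 TPM in *Snd1* KO 1 to 3. The controls lay within a few percent of each other. *Snd1* KO 2 and *Snd1* KO 3 were above all controls at 133% and 118% of their mean, and *Snd1* KO 1 was below all of them at 87.9%. The log2 difference was 0.15 ± 0.16 (95% interval −0.23 to 0.54, limma adjusted p = 0.812), with 0.32 without *Snd1* KO 1 and 0.02 without *Snd1* KO 2. *Tspan31* on the opposite strand covers 19.7% of the exonic bases of *Cdk4* and was at 127 to 154 TPM. Reads there cannot be assigned by strand, and their part in the *Cdk4* values was not tested.

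*Cdk6* (ENSMUSG00000040274, chromosome 5 from 3341485 to 3531008, plus strand) was close to silent. It had 15, 15 and 0 reads in Control 1 to 3 and 8, 3 and 7 reads in *Snd1* KO 1 to 3, at most 0.156 TPM. For Control 3 the floor of 3 reads corresponds to 0.0342 TPM. Summed reads were 30 in controls (exact Poisson interval 20.2 to 42.8) and 18 in *Snd1* KO (10.7 to 28.4), intervals that cover counting error only. The intervals take each read as independent and would be too narrow if mates were counted separately. *Cdk6* was under the mean of 0.5 TPM needed for testing, as was *Ccnd1*.

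The Ink4 genes together were at 721 to 788 per-length TPM in controls and 651 to 802 in *Snd1* KO. *Cdkn2c* (ENSMUSG00000028551, chromosome 4 from 109660876 to 109667189, minus strand) made up 63.0% to 68.6% of this sum in all clones. It was the steadiest gene of the tested ones, with a ratio of highest to lowest clone of 1.20. Values were 572, 524 and 537 TPM in Control 1 to 3 and 497, 598 and 544 TPM in *Snd1* KO 1 to 3. *Snd1* KO 1 was below and *Snd1* KO 2 above all controls, and the group means were 545 and 546 TPM. On the log2 scale the groups differed by 0.00 ± 0.12 with a 95% interval from −0.28 to 0.29 (limma adjusted p = 0.999).

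*Cdkn2a* (ENSMUSG00000044303, chromosome 4 from 89274471 to 89294653, minus strand) encodes p16Ink4a, a Cdk4/6 inhibitor, and p19Arf, which holds back the p53 antagonist Mdm2, from separate first exons. The deposited row sums both and cannot separate them. It was at 254, 239 and 204 TPM in Control 1 to 3 and at 182, 242 and 222 TPM in *Snd1* KO 1 to 3. Control 3 and *Snd1* KO 1 were the lowest of their groups, and the log2 difference was −0.11 ± 0.15 (limma adjusted p = 0.852). It was −0.20 without Control 3 and −0.00016 without *Snd1* KO 1.

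*Cdkn2b* (ENSMUSG00000073802, chromosome 4 from 89306299 to 89311039, minus strand) lies next to *Cdkn2a* and is known as a target of TGF-β signaling. It was at 43.5, 55.3 and 52.1 TPM in Control 1 to 3 and at 30.6, 41.6 and 55.9 TPM in *Snd1* KO 1 to 3. *Snd1* KO 1 and *Snd1* KO 2 were below all controls, whereas *Snd1* KO 3 was above them. Group means differed by −0.27 ± 0.22 on the log2 scale (limma adjusted p = 0.758), with −0.48 without *Snd1* KO 3 and −0.05 without *Snd1* KO 1. The genes on either side of the *Cdkn2a* and *Cdkn2b* locus are given with it. *Mtap*, an enzyme of the methionine salvage pathway, was at 66.9, 60.9 and 38.0 TPM in controls and 40.0, 36.8 and 45.1 TPM in *Snd1* KO. *Dmrta1*, a DM domain factor, was at 28.4, 24.3 and 28.0 TPM in controls and 41.0, 30.7 and 41.4 TPM in *Snd1* KO, without overlap, at a log2 difference of 0.46 ± 0.15 (limma adjusted p = 0.581). Of all genes tested, 9.69% were likewise higher in every KO clone than in every control, and an effect on the locus was not tested.

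*Cdkn1b* (ENSMUSG00000003031, chromosome 6 from 134920401 to 134925513, plus strand) was at 157, 155 and 111 TPM in Control 1 to 3 and at 150, 188 and 190 TPM in *Snd1* KO 1 to 3. *Snd1* KO 2 and *Snd1* KO 3 were above all controls, at 133% and 135% of the control mean, and *Snd1* KO 1 lay within the controls. The log2 difference was 0.33 ± 0.17 (95% interval −0.09 to 0.75, limma adjusted p = 0.637), and it dropped to 0.17 without Control 3, the lowest clone.

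*Cdkn1a* (ENSMUSG00000023067, chromosome 17 from 29090976 to 29100727, plus strand), the main inhibitor gene switched on by p53, was at 114, 101 and 104 TPM in Control 1 to 3. In *Snd1* KO 1 to 3 it was at 124, 89.4 and 111 TPM. *Snd1* KO 1 was the highest and *Snd1* KO 2 the lowest of all clones, and the means were level. The log2 difference was 0.01 ± 0.14 (95% interval −0.33 to 0.35, limma adjusted p = 0.991). An unnamed opposite-strand gene of GENCODE M21 shares 7.68% of its exonic bases.

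**Figure D2:**
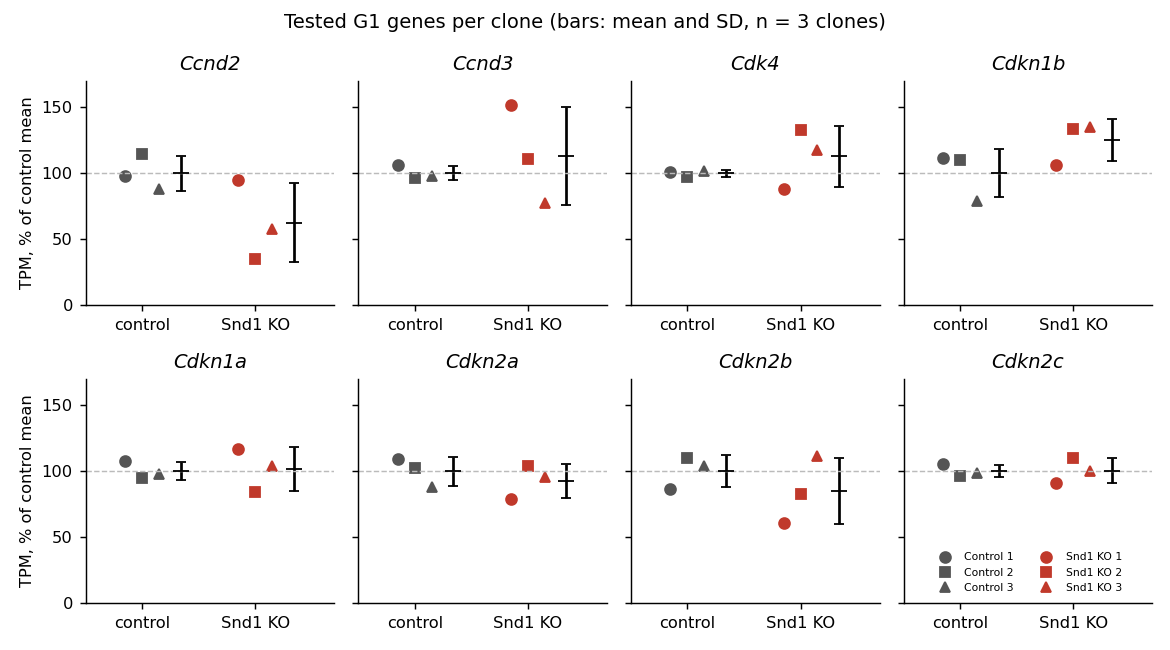
Deposited TPM of the 8 tested G1 genes as a percentage of the control mean, with 1 point per clone and the mean and SD of each group (n = 3 clones) at its right. *Snd1* KO 2 and *Snd1* KO 3 are below all controls for *Ccnd2* and above them for *Cdk4* and *Cdkn1b*, whereas *Snd1* KO 1 is not.

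None of the 8 tested genes passed an adjusted p under 0.05 with a 2-fold change, and none passed an unadjusted p under 0.05 or was called with voom on the recovered reads. Over all 17823 genes tested with limma, 0.00561% passed the first and 7.96% the second. None of the 8 had groups that did not overlap, beside 13.7% of all genes. This count depended on the clones. Without *Snd1* KO 1, *Ccnd2* was lower and *Cdk4* and *Cdkn1b* were higher in every remaining KO clone than in every control, but 33.5% of all genes then did not overlap either. Without Control 3, *Ccnd2* alone did not overlap, beside 35.0% of all genes. Without *Snd1* KO 3, *Ccnd3* was higher and *Cdkn2b* lower, beside 21.8%. Without Control 3 and *Snd1* KO 1 together the 3 genes were *Ccnd2*, *Cdk4* and *Cdkn1b* again, beside 61.0% of all genes, and 0 of the 8 were called while 133 of all genes were. An unadjusted p under 0.05 was then reached by 3 of the 8, beside 26.7% of all genes. The largest difference in that setting was −1.23 ± 0.27 for *Ccnd2* (limma adjusted p = 0.10).

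**Figure D3:**
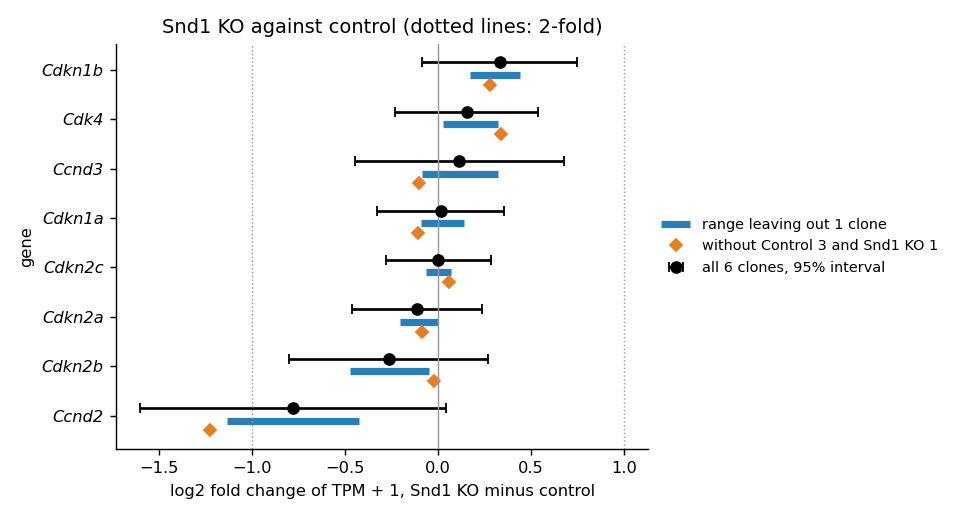
Log2 fold change of TPM + 1 of the 8 tested genes, *Snd1* KO minus control, with the 95% interval of limma in black, the range over fits that leave out 1 clone in blue, and the value without Control 3 and *Snd1* KO 1 in orange. Every interval includes 0, and *Ccnd2* has the widest, from −1.60 to 0.04.

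*Ccnd2* and *Cdk4* deviated from the control mean in opposite directions in *Snd1* KO 2 and *Snd1* KO 3, so the balance between cyclin and kinase RNA was computed per clone. The ratio of D cyclin to *Cdk4* and *Cdk6* per-length TPM was 2.86, 3.47 and 2.54 in Control 1 to 3, and 3.21, 0.806 and 1.45 in *Snd1* KO 1 to 3. *Snd1* KO 1 was like the controls, and in the other two KO clones the ratio was lower than in any control. The ratio of Ink4 to D cyclin per-length TPM was 1.19, 0.954 and 1.20 in controls and 0.987, 3.23 and 1.88 in *Snd1* KO. That of *Cdkn1b* to *Ccnd2* was 0.304, 0.257 and 0.241 in controls and 0.30, 1.01 and 0.629 in *Snd1* KO. In *Snd1* KO 2 the RNA of p27 was thus level with that of cyclin D2. These ratios were formed after the single genes were known and carry no test.

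**Figure D4:**
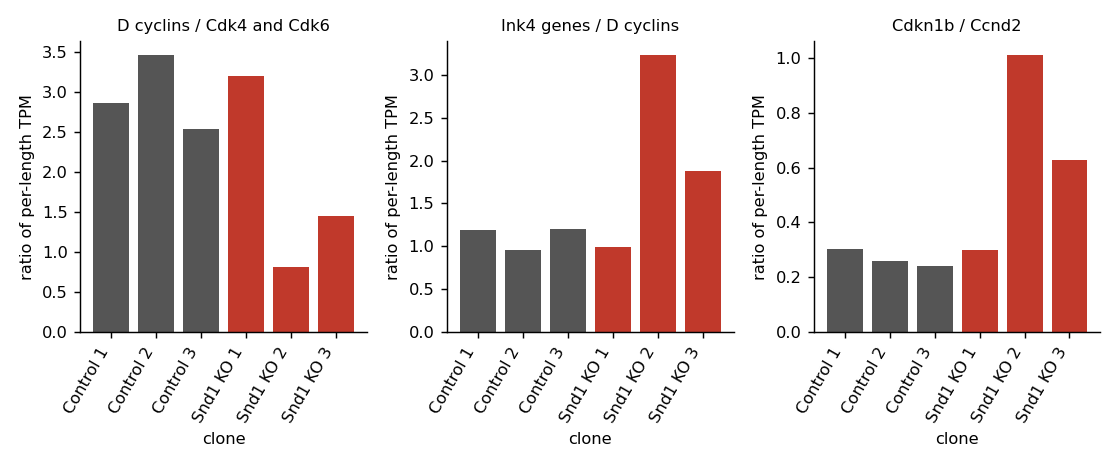
Ratios of per-length TPM in each clone for D cyclins over *Cdk4* and *Cdk6*, Ink4 genes over D cyclins, and *Cdkn1b* over *Ccnd2* (grey, control; red, *Snd1* KO; bars start at 0). *Snd1* KO 1 is within the control range in each, and *Snd1* KO 2 is farthest from it.

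The clone-to-clone patterns of the genes are described by correlations of log2(TPM + 1) over the 6 clones, which share libraries and are given without a test. *Ccnd2* and *Cdk4* had r = −0.92 and *Ccnd3* and *Cdkn2b* r = −0.95. *Cdk4* and *Cdkn2c* had r = 0.83, the highest of the 28 pairs. The genes with the pattern most like *Ccnd2*, among 11367 genes averaging 5 TPM or more, were *Ttbk1*, a tau kinase, at r = 0.997, *Mcfd2*, a cargo receptor subunit of the early secretory pathway, at r = 0.997, and *Nucb1*, a calcium-binding protein of the Golgi, at r = 0.996. *Ttbk1* was at 33.1, 39.7 and 28.7 TPM in controls and 32.1, 11.7 and 17.8 TPM in *Snd1* KO, in the same order of clones as *Ccnd2*. In all, 121 genes reached r = 0.95 with *Ccnd2* and 137 reached −0.95, so its pattern was shared by many genes.

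For *Cdkn2b* the likest were *Aldh1l2*, a mitochondrial folate enzyme, at r = 0.994, *Gpt2*, a mitochondrial alanine transaminase, at r = 0.977, and *Plbd2*, a lysosomal protein, at r = 0.973. *Aldh1l2* was at 20.4 TPM in *Snd1* KO 1 and at 37.2 to 68.2 TPM in the other clones. For *Cdkn1b* they were the mitochondrial transcript *mt-Nd3* at r = 0.9996, *A230072C01Rik* at r = 0.996 and *Gm49539* at r = 0.995. *mt-Nd3* was at 22.1 TPM in Control 3, at 51.8 to 57.7 TPM in Control 1, Control 2 and *Snd1* KO 1, and at 95.9 and 95.4 TPM in *Snd1* KO 2 and *Snd1* KO 3.

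The genes around this step were examined as 7 lists of 100 genes, of which 95 were tested. None was called with limma or with voom on the recovered reads, 6 had an unadjusted p under 0.05 (background 7.96%), and 7 were higher and 1 was lower in all KO clones than in all controls. Over all genes tested these last shares were 9.69% and 4.03%. The median log2 difference was 0.06 over the 95 genes and 0.04 over all genes. Without Control 3 and *Snd1* KO 1, 2 of the 95 were called (*Igf1r* and *Gadd45a*), beside 133 of all 17823 genes. In that setting 32 had an unadjusted p under 0.05, beside 26.7% of all genes, and 37 were higher and 25 lower without overlap. The genes without overlap made up 65.3% of the 95, beside 61.0% of all genes.

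Downstream of the kinases, 0 of 13 retinoblastoma and E2F family genes differed without overlap, beside 13.7% of all genes. Without Control 3 and *Snd1* KO 1, 3 were higher and 4 lower, or 53.8%, beside 61.0% of all genes. *Rb1*, the main substrate, was at 63.6, 56.5 and 40.3 TPM in controls and 58.5, 70.6 and 78.3 TPM in *Snd1* KO (log2 difference 0.38 ± 0.20, and 0.19 without Control 3). *E2f4*, a repressive E2F, was at 22.5 TPM in *Snd1* KO 1 and at 49.7 to 59.5 TPM in the other clones. *Tfdp2*, a partner of E2F proteins, had a log2 difference of 0.20 ± 0.15 (0.10 to 0.34 leaving out 1 clone) and *E2f3*, an activating E2F, of −0.31 ± 0.17 (−0.45 to −0.20). E2F target genes of S phase, 18 in all, spanned −0.17 for *Rrm2*, a ribonucleotide reductase subunit, to 0.27 for *Gins1*, a subunit of the replication helicase, with a median of 0.11. The groups overlapped in all 18, and without those 2 clones 38.9% did not overlap, beside 61.0% of all genes. *Mcm7*, another helicase subunit, was at 0.25 ± 0.16 and *Tk1*, thymidine kinase, at −0.14 ± 0.15. Leaving out 1 clone gave 0.11 (without *Snd1* KO 2) to 0.39 (without *Snd1* KO 1) for *Mcm7*, −0.24 to −0.032 for *Tk1*, 0.15 to 0.37 for *Gins1* and −0.32 to −0.068 for *Rrm2*.

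Among Cyclin E, Cdk2 and the Cdk-activating kinase, 1 of 8 tested genes did not overlap, or 12.5%, a share close to the 13.7% of all genes, and 75% without Control 3 and *Snd1* KO 1, beside 61.0%. This was *Cdk2*, at 12.2, 11.1 and 11.9 TPM in controls and 12.6, 16.9 and 13.8 TPM in *Snd1* KO, with a log2 difference of 0.27 ± 0.15 (limma adjusted p = 0.645). *Ccna2*, the S phase cyclin, was at 0.16 ± 0.12, *Ccne1*, which activates Cdk2, at −0.07 ± 0.14 and *Cdc25a*, a phosphatase that activates Cdk2, at −0.16 ± 0.14. Leaving out 1 clone gave 0.16 to 0.36 for *Cdk2*, 0.085 to 0.26 for *Ccna2*, −0.21 to 0.015 for *Ccne1* and −0.26 to −0.096 for *Cdc25a*.

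Of 12 other Cdk inhibitors and genes for the turnover of D cyclins and p27, *Cdkn1c* alone did not overlap (8.33%, beside 13.7% of all genes). Without Control 3 and *Snd1* KO 1 the share was 58.3%, beside 61.0%. It encodes p57, a further inhibitor of the p21 and p27 family. It was at 1.40, 2.07 and 0.541 TPM in controls and at 2.42, 5.31 and 2.85 TPM in *Snd1* KO, and the log2 difference was 0.96 ± 0.36 (limma adjusted p = 0.605). The pseudocount of 1 weighs on such low values, and the difference was 1.42 with a pseudocount of 0.1 and 1.45 with voom on the recovered reads. *Fbxo4*, an F-box protein linked to cyclin D1 turnover, was at −0.30 ± 0.16, *Cks1b*, which helps degrade p27, at −0.14 ± 0.15, and *Gsk3a*, a glycogen synthase kinase, at 0.13 ± 0.10. *Cks1b* was at −0.27 without *Snd1* KO 1 and at −0.033 without *Snd1* KO 3. *Fbxo4* was at −0.46 without *Snd1* KO 1, and *Gsk3a* at 0.081 without Control 3.

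Of 18 tested p53 pathway genes, 3 were higher and 1 was lower without overlap. These were 22.2% of the list, beside 13.7% of all genes (9.69% higher, 4.03% lower), and without Control 3 and *Snd1* KO 1 the share was 83.3%, beside 61.0%. *Perp*, a membrane protein induced by p53, was at 27.3, 20.1 and 42.7 TPM in controls and 174, 49.2 and 51.5 TPM in *Snd1* KO (log2 difference 1.38 ± 0.52, limma adjusted p = 0.605). Without *Snd1* KO 1 its difference was 0.79. *Phlda3*, an Akt inhibitor induced by p53, was at 0.871, 0.367 and 3.43 TPM in controls and 5.51, 3.11 and 3.09 TPM in *Snd1* KO, which overlapped through Control 3. *Trp53inp1* and *Ei24* were the other two higher genes, and *Btg2* was lower at −0.20 ± 0.11. *Sesn2*, a stress-induced sestrin, was at −0.37 ± 0.27, and at −0.053 without *Snd1* KO 1. *Cdkn1a*, the best known gene of this group, was level, as given above.

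Polycomb proteins and menin are known to set the expression of Ink4 genes and p27. Of these 11 genes, 10 had a log2 difference above 0, as did 57.3% of all genes tested, and the group was not tested. The median was 0.16, beside 0.04 over all genes, and 1 did not overlap (9.09%, beside 13.7% of all genes). Without Control 3 and *Snd1* KO 1 it was 90.9%, beside 61.0%. *Rnf2*, a ubiquitin ligase of Polycomb, was at 30.9, 32.3 and 23.6 TPM in controls and 40.7, 36.4 and 39.2 TPM in *Snd1* KO (0.42 ± 0.15, limma adjusted p = 0.585). *Cbx7* and *Cbx8* are chromodomain subunits of Polycomb. *Cbx8* was at −0.45 ± 0.19, and *Cbx7* was at 0.40 ± 0.30, with 0.73 without *Snd1* KO 1 and 0.16 without *Snd1* KO 2.

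Among 15 tested genes of mitogen pathways to D cyclins, 1 did not overlap (6.67%, beside 13.7% of all genes). Without Control 3 and *Snd1* KO 1 the share was 66.7%, beside 61.0%, so both shares were below or near those of all genes. The gene without overlap among all 6 clones was *Igf1r*, the receptor for insulin-like growth factor 1, which had the largest difference. It was at 0.650, 0.976 and 9.97 TPM in controls and at 32, 16.8 and 18.4 TPM in *Snd1* KO, without overlap. Its log2 difference was 2.77 ± 0.72 (limma adjusted p = 0.568), and it was called with clone quality weights and without Control 3 and *Snd1* KO 1. In those settings 895 and 133 of all genes were called. *Prlr*, the prolactin receptor, was highest in Control 3 (16.3 TPM) and in *Snd1* KO 1 (12.6 TPM), and was at 1.43 to 3.77 TPM in the other clones. *Irs2*, an adaptor of insulin and growth factor receptors, was at −0.47 ± 0.25 and *Mycn*, a Myc family factor, at −0.23 ± 0.41, and both were lowest in *Snd1* KO 1. Without that clone *Irs2* was at −0.20 and *Mycn* at 0.24.

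**Figure D5:**
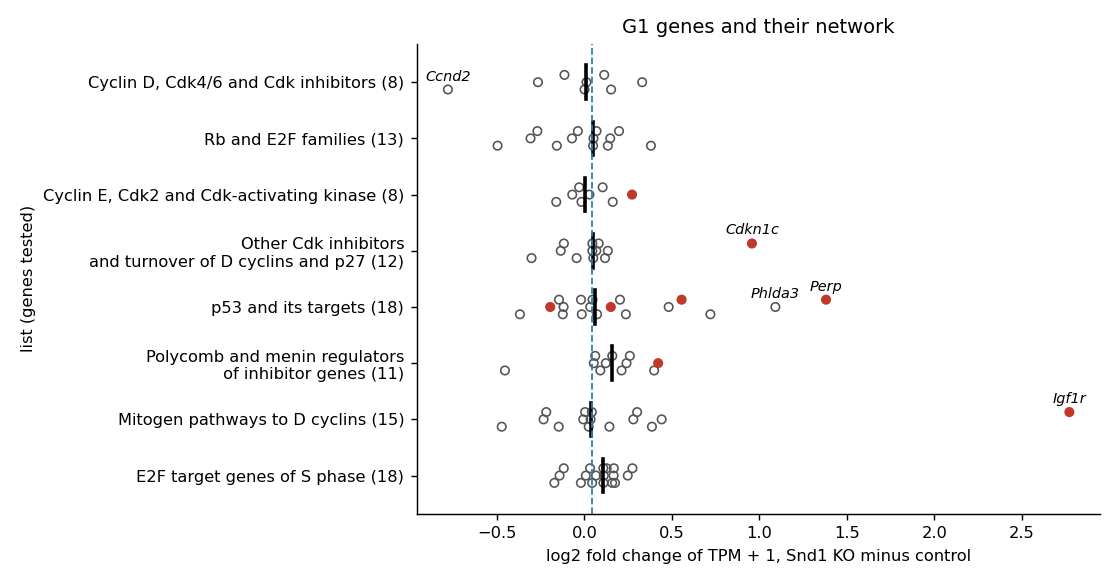
Log2 fold change of TPM + 1, *Snd1* KO minus control, of each tested gene in the G1 list and 7 network lists, with black bars at list medians and a dashed line at the median of all genes tested (0.04). Red points are genes whose groups do not overlap, and none of the points passed the adjusted threshold.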

How the data were processed

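Messenger RNA of 6 MIN6 clones (3 control, 3 *Snd1* KO, by the genotype in the labels) was sequenced as paired ends. The authors ran their pipeline within Genialis and deposited gene-level TPM. The submitters' processing notes name FastQC, Trimmomatic, HISAT2, HTSeq, DESeq2 and mm10, without roles. Of 53801 gene rows, 53706 matched GENCODE M21. TPM multiplied by the length summed over all transcripts came in whole steps, within 0.01 in all 6 clones, for 91.7% of 14851 genes. These genes averaged 1 TPM or more and were above 0 in all clones. The lengths of 1779 genes were then searched for 1 that gave whole reads. The 99.97% of values above 0 that were whole afterwards rest partly on that search. The recovered reads gave depth, the floor of 3 reads and per-length TPM. Read depth bears on counting error only. Deposited TPM were taken as log2(TPM + 1), and genes averaging 0.5 TPM or more were compared by limma 3.58.1 (trend) in R 4.3.3, adjusted by Benjamini-Hochberg over 17823 genes, and called at an adjusted p under 0.05 and 2-fold. The groups hold separate clones but no repeat libraries. Python 3.11.15 was used for other steps. The genes and lists were chosen with earlier results of these data known. Named genes are the 10 genes, up to 2 highest and 2 lowest per list, called genes, *Snd1*, *Mtap*, *Dmrta1* and the 3 genes most like each of the 3 of the 10 with the largest SD of log2(TPM + 1). Markers and genes without overlap were named beside their counts, the latter after their values were seen. Alternatives were other pseudocounts, filters, scalings, weights, a replicate block, left-out clones and voom on the reads.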

Additional observations from a re-analysis of the deposited data

How the results depend on the processing

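No G1 gene was called under any alternative run. For the other network genes 4 were called with clone quality weights (*Igf1r* 3.28, *Perp* 1.18, *Phlda3* 1.34 and *Gadd45a*, while 895 of all genes were called). Without Control 3 and *Snd1* KO 1, a setting chosen after seeing the data, 2 were called, beside 133 of all genes. These were *Gadd45a* and *Igf1r*, the latter at 3.36. The cause was not tested. *Snd1* and *Ttbk1* also passed with the weights, at −2.31 and −1.01, as did *Slc30a8*. Leaving out 1 clone gave 0 to 3 G1 genes without overlap, beside 18.1% to 35.0% of all genes. Leaving out both named clones gave 3, beside 61.0% of all genes. Of 749 refits of 47 genes, 720 kept direction and call. Signs turned for *Ccnd3* (−0.20 with weights, −0.089 to 0.32 leaving out 1 clone, −0.10 without both clones), *Cdkn1a* (−0.031 by median ratio scaling, −0.093 to 0.14, −0.11), *Cdkn2b* (0.049 with weights), *Cdkn2c* (−0.042 by median ratio scaling, −0.066 to 0.067, −0.0060 by voom), *Ccne1* (−0.21 to 0.015), *Prlr* (−0.071 to 1.34), *Mycn* (0.15 with weights, −0.51 to 0.24, 0.14 without both clones), *Aldh1l2* (0.10) and *Gpt2* (0.10, both with weights). On TPM as deposited, *Ccnd2* was 99.3% and 98.6% of D cyclins in control and *Snd1* KO, *Cdk4* 99.9% and 99.9% of its pair, and the D cyclin ratio 6.26 and 3.84, in a unit whose lengths are summed over transcripts. The clone numbers did not pair the clones (r of deviations 0.05, −0.12 and −0.07, and not every clone correlated best with its own number), and the replicate block gave 0 calls among the G1 genes and 0 of all genes, compared with 1. Precision is limited by 3 clones a group, and for *Ccnd1* also by its 0 to 2 reads. *Cdk6* had few reads and also differed between controls, with 15, 15 and 0 reads.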
